A study of Drosophila melanogaster with 4 samples.

Results

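Chromosome 4 of Drosophila melanogaster was divided into consecutive windows of 5 kb, from position 1 to its last base at 1351857 (FlyBase release 5). The tiling gave 271 windows, of 33750 on the 14 sequences that the file headers name, and the last one held only 1857 bp. All 271 were kept, so no window was chosen for its signal. For each window the share of its bases inside deposited clusters of H3K9me2 enrichment was computed. This was done in each of 2 ChIP samples (replicates 1 and 2) and in the list that covers the whole series (the combined list).

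H3K9me2, dimethylation of lysine 9 on histone H3, was mapped by chromatin immunoprecipitation and sequencing (ChIP-seq) in S2-DRSC cells, a cultured line from late embryos that is labelled male. The 4 samples were 2 ChIP samples, made with an antibody numbered 2 in the labels, and 2 inputs, sheared chromatin without immunoprecipitation. No genotype, treatment or time course was labelled, and the inputs enter only through the authors' cluster calls. Separate cultures for the ChIP samples are not stated, so their spread may be technical. The depth behind the calls is unknown. The antibody and the cell line could not be checked against markers, because cluster lists hold no expression or read values.

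Methylated H3K9 is bound by heterochromatin protein HP1, and the pair marks compact, repeat-rich chromatin around centromeres. Chromosome 4 is the small dot-shaped autosome of the fly. It is known for carrying HP1 and H3K9 methylation along an arm that nevertheless holds active genes, among them cubitus interruptus (a Hedgehog pathway transcription factor) and eyeless (an eye-forming transcription factor). In flies its H3K9 methylation is known to depend largely on the methyltransferase Eggless, and the chromosome-specific protein POF binds along it. Its centromere lies beyond the low-coordinate end of the sequence and its telomere beyond the high-coordinate end. Genes could not be placed on the windows, since no annotation of release 5 was used here.

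Most of chromosome 4 was marked in both samples, with bare ends and short interruptions. A window is called marked when at least 50% of its bases lie in clusters. In replicate 1, 208 of 271 windows were marked (76.8%, against 14.8% of all windows of the series). In replicate 2, 234 were marked (86.3%, against 17.9% of all windows). The 208 windows marked in both replicates (76.8%, against 14.4% of all windows) were all of those marked in replicate 1. A further 26 windows (9.59%) were marked in replicate 2 alone, and 0 in replicate 1 alone. Over all 33750 windows too, more were marked in replicate 2 (6055) than in replicate 1 (4995), with 4856 in both. The direction of the excess is thus not particular to chromosome 4. As a share of windows it was larger on chromosome 4 (76.8% to 86.3%) than over all windows (14.8% to 17.9%). The next level up was full coverage: 119 windows (43.9%) had every base inside clusters in both samples, against 6.69% of all windows. Only 26 windows (9.59%) had no covered base in either sample, against 68.1% of all windows. The series-wide shares include the chromosome 4 windows.

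**Figure D1:**
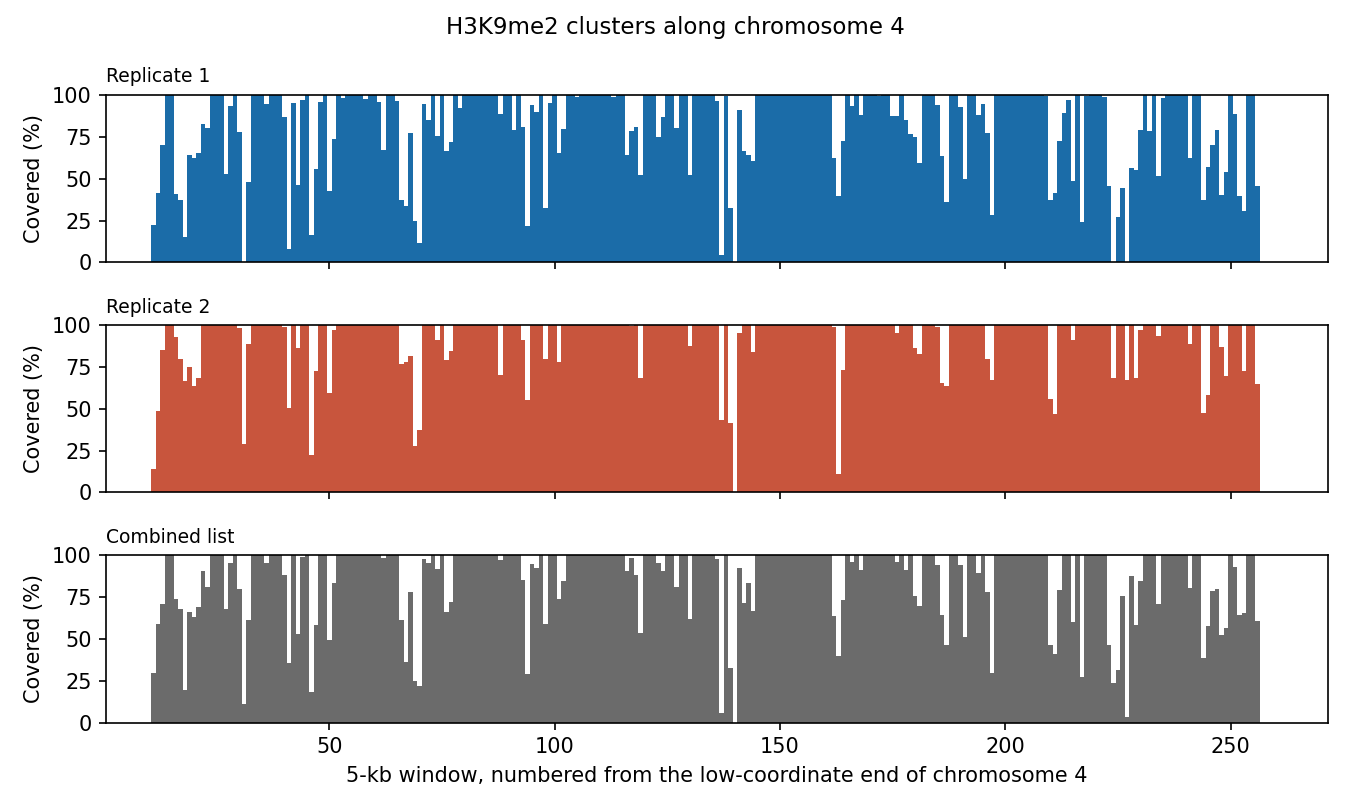
Covered share of each 5-kb window of chromosome 4 (y axis, %) against the window's number from the low-coordinate end (x axis), for replicate 1, replicate 2 and the combined list. The first 10 and the last 15 windows are at 0 in all 3 panels, and the windows between them are mostly at or near 100%.

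Of the 26 windows without a covered base, 10 lay at the low-coordinate end, 15 at the high-coordinate end and 1 between them. At the low end, the centromere side, the first covered base was at 53499 in replicate 1, at 54307 in replicate 2 and at 53518 in the combined list. The bare stretch there was 53902 ± 571 bp (SD, n = 2). At the high end, the telomere side, the last covered base was at 1277294 in replicate 1, at 1278245 in replicate 2 and at 1278035 in the combined list. That bare stretch was 74088 ± 672 bp (SD, n = 2). The positions of both borders thus differed between the samples by less than 1 kb, and both samples left the outermost sequence empty.

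Together the 2 ends without any cluster, positions 1 to 53498 and 1278246 to 1351857, made up 127 kb, or 9.40% of the chromosome. They held 59.1% of all bases that lay outside clusters in both samples. Between the first and the last covered base, clusters held 82.5% of the sequence in replicate 1 and 92.5% in replicate 2 (87.5 ± 7.05% as mean and SD, n = 2). The lists do not show whether the bare ends lack the mark, since read counts and input signal were not used here.

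The first cluster at the low end ranked high by score in both lists. The score is the authors' own value per cluster, in no stated unit. It is used here within a list, to order and summarise clusters and to set a cutoff at the list's median. In replicate 1 the first cluster of the chromosome, at 53499 to 54499, had the highest score of all 97 clusters there, 2.89. The next, at 54897 to 55987, had rank 4 with 2.42. In replicate 2 the first cluster, at 54307 to 55367, had rank 5 of 48 with 3.14, and the next, at 55844 to 56855, had rank 29 with 2.35, under that list's chromosome 4 median of 2.58. These clusters are each close to 1 kb long and overlap only in part. Only 193 bp of the 1001 bp of the first replicate 1 cluster lay in a replicate 2 cluster. The combined list held 1 cluster there, at 53518 to 56856, which joined them. The high-coordinate border was formed by longer clusters, at 1263476 to 1277294 in replicate 1 and at 1263563 to 1278245 in replicate 2, with scores of 1.53 and 2.92.

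Inside these borders the marked windows formed long blocks. Runs of windows marked in both replicates numbered 24, and their median length was 15 kb. All windows marked in replicate 1 were marked in replicate 2, so these are the runs of replicate 1. Of the 38 windows between the bare ends not marked in both, 26 were marked in replicate 2, so its own runs had fewer breaks. Of the 24 runs, 8 blocks of at least 50 kb held 161 of the 208 marked windows, or 77.4%. The longest block ran from 490001 to 680000, 190 kb or 38 windows, with 92.2% of its bases in replicate 1 clusters and 98.2% in replicate 2 clusters. It held 24 windows with full coverage in both.

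Blocks of 115 kb followed at 350001 to 465000 (92.8% and 96.3% in replicates 1 and 2) and at 815001 to 930000 (90.6% and 95.7%). The block at 700001 to 810000 was 110 kb long and covered at 92.9% and 99.01%. Of the smaller blocks, 3 lay nearer the ends of the chromosome: 1135001 to 1215000 (86.4% and 96.7%), 250001 to 325000 (95.3% and 99.8%) and 90001 to 150000 (81.6% and 92.1%). The block at 985001 to 1045000 stood at 99.96% and 100%, with 11 of its 12 windows full in both samples. The 4 longest blocks, as drawn from both samples, all lay between 350001 and 930000, in the middle of the chromosome. In replicate 2 the windows at 465001 (55.3%) and 485001 (79.9%) were also marked. Its run there thus joined the longest block to the 115 kb block before it. The window at 930001 (63.4%) was marked in replicate 2 too, and its run continued past 930000 up to 1050000. Every window from 1055001 to 1215000 was also marked in replicate 2. The central place of the longest blocks thus holds for the runs of replicate 1, while long runs of replicate 2 reached further toward the high end.

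At base resolution, 97 stretches were covered without a break in both samples, and their median length was 6902 bp. The first of them by length, at 717852 to 808125, was 90.3 kb and filled 17 consecutive windows. It was followed by 58.3 kb at 983597 to 1041930, 40.9 kb at 394205 to 435125, 38.01 kb at 522595 to 560599 and 31.7 kb at 648117 to 679830. These 5 stretches held 25.8% of the bases covered in both samples, and the 11 stretches of at least 20 kb held 40.1%.

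The density of coverage was uneven along the chromosome when read in sections of 100 kb. From 100001 to 1200000, the mean of the replicates in a section stayed between 82.1% and 96.5%. The highest was at 700001 to 800000, with 94.1% in replicate 1 and 98.96% in replicate 2. Next came 500001 to 600000, with 90.9% and 97.3%, and 400001 to 500000, with 89.1% and 94.8%. The section from 1200001 to 1300000, which includes the high border, had 55.3% and 69.4%. The first section, which includes the low border, had 27.7% and 36.3%. In each of the 13 sections with any cluster, replicate 2 stood above replicate 1, by 4.82 to 22.9 percentage points.

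The internal gaps shared by both samples were short. An internal gap is a stretch outside the clusters, between the first and the last covered base. Gaps outside the clusters of both samples numbered 47, with a median of 1589 bp, and summed to 87.8 kb. In replicate 1 alone 96 gaps summed to 214 kb, and in replicate 2 alone 47 gaps summed to 91.7 kb. The sum of the shared gaps is thus close to that of replicate 2. Only 3 shared gaps reached 5 kb. The 2 longest gaps of replicate 1, at 1112291 to 1123652 (11362 bp) and at 1127215 to 1137184 (9970 bp), were mostly covered in replicate 2.

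The longest of these gaps lay at 692068 to 700230, 8163 bp, and contained the 1 internal window with no covered base in either sample (695001 to 700000). In replicate 1 it ran from 691638 to 700436 and in replicate 2 from 692068 to 700230, so that its borders differed by 430 bp and 206 bp. It separates the longest block from the 110 kb block, together with a smaller gap at 682560 to 684507 (1948 bp). The second, at 341398 to 348119, was 6722 bp long, and its borders differed by 166 bp and 1290 bp. The third, at 226122 to 231376, was 5255 bp long, with differences of 304 bp and 845 bp. All 3 lay wholly outside the combined clusters as well.

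The next 7 gaps by length measured between 2548 bp and 4846 bp. They started at 1047801, 1217373, 149927, 98178, 464545, 978991 and 199936. The 10 longest held 50.8% of the shared gap length. Over the 94 borders of the 47 shared gaps, the 2 samples differed by a median of 652 bp, and 34 borders (36.2%) lay within 500 bp of each other. A replicate 1 gap that spans more than 1 shared gap was counted at each of them. The direction of the difference was nearly uniform, with 44 gaps narrower in replicate 2 and 3 wider. Of the 47 shared gaps, 37 lay wholly outside combined clusters and 1 wholly inside.

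**Figure D2:**
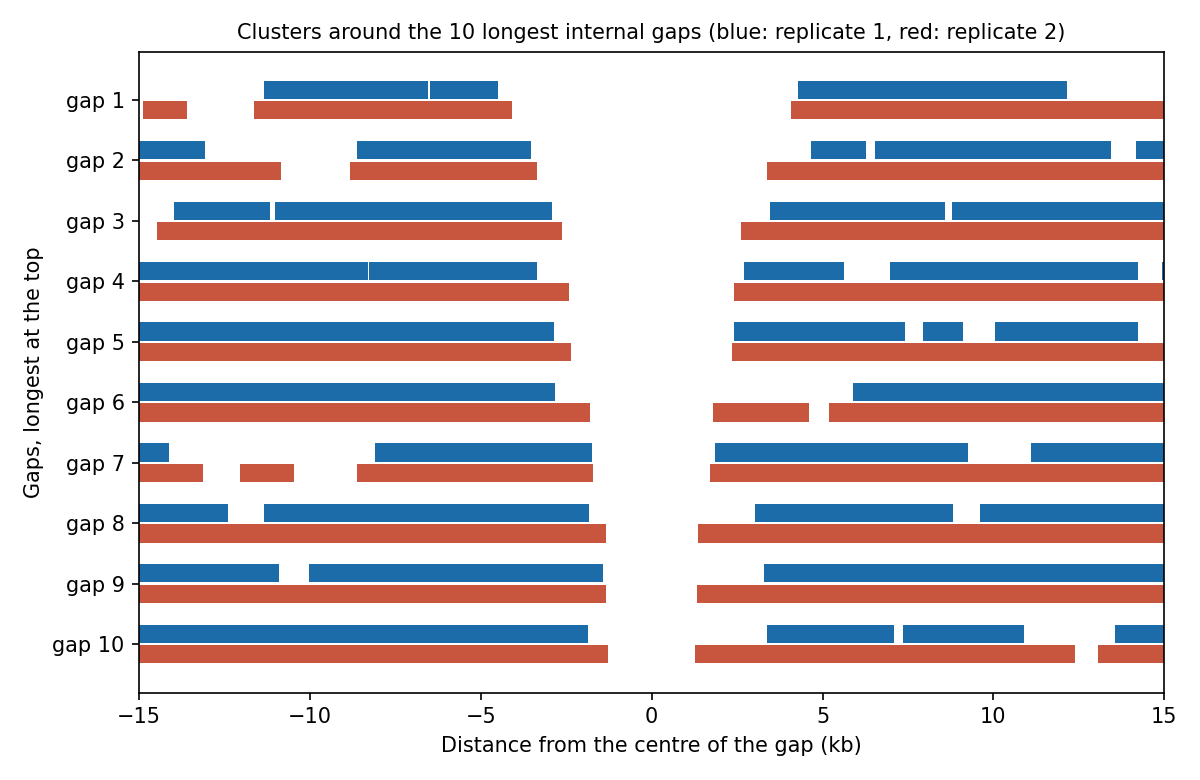
Clusters of replicate 1 (blue) and replicate 2 (red) around the 10 longest internal gaps of chromosome 4 shared by both samples, one gap per row, against distance from the gap's centre (kb). The white middle is uncovered in both, from 8163 bp in the top row to 2548 bp in the bottom row, and the red bars reach further toward the centre.

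Shared gaps of at least 2 kb, 15 in all, were spread unevenly. The distance from one to the next had a median of 57.2 kb and ranged from 5.47 kb to 225 kb. The widest distance, from 467236 to 692067, included the longest block and no shared gap of that size. Between 333897 and 348119, by contrast, 2 of them lay 5.47 kb apart.

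Where the 2 samples differed, replicate 2 was nearly always the higher. Windows with a higher share in replicate 2 numbered 123, those higher in replicate 1 numbered 3, and 145 were equal, all of them either full or empty in both samples. Over all windows of the series the mean share was also higher in replicate 2, 19.1% against 15.5%. Of the 246 windows between the bare ends, 149 (60.6%) differed by less than 5 percentage points. Over these 246 windows the shares of the 2 samples had a Pearson correlation of 0.783 and a Spearman correlation of 0.756. This describes windows that neighbour each other and share their libraries, and it is no test. Of the bases in replicate 1 clusters on the chromosome, 99.5% lay in replicate 2 clusters, and 88.8% of the replicate 2 bases lay in replicate 1 clusters. Clusters held 82.5% (replicate 1) and 92.5% (replicate 2) of the sequence between the first and last covered base. A large overlap would thus be found wherever they lay within it.

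**Figure D3:**
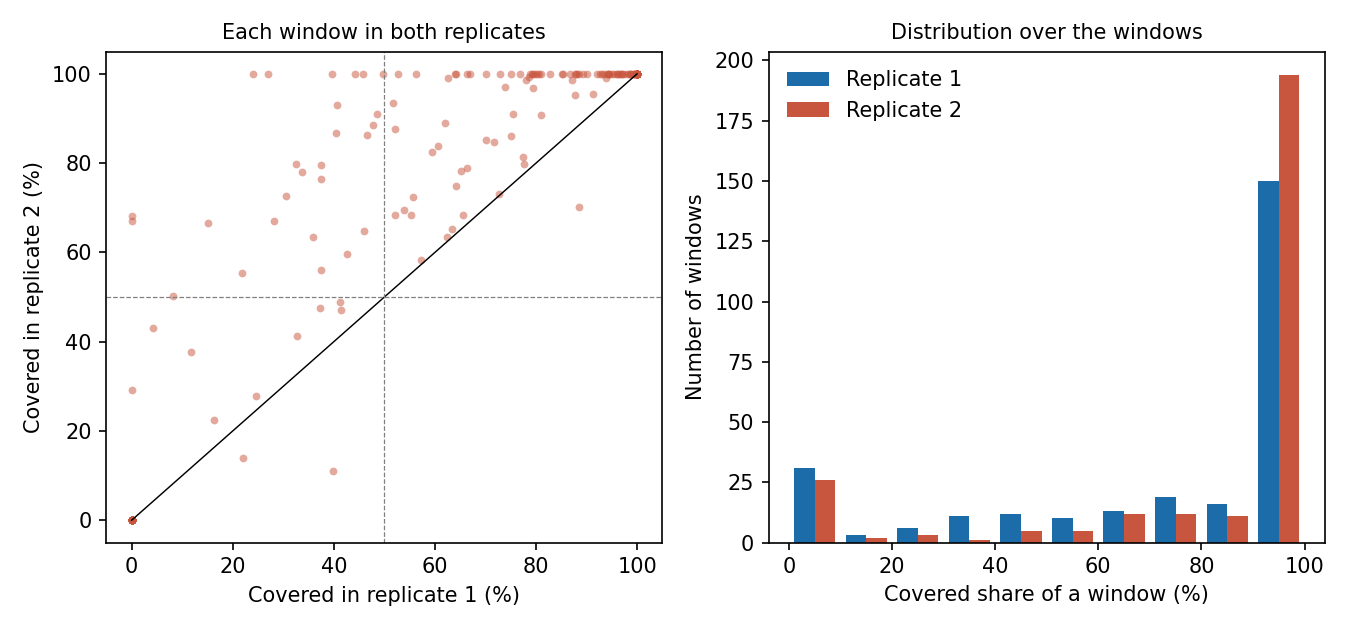
Left, covered share of each of the 271 windows in replicate 1 (x axis, %) and replicate 2 (y axis, %), with the line of equality and dashed lines at 50%. Right, number of windows per 10-point class of covered share. Only 3 windows lie under the line of equality, and none at the lower right of the dashed lines, where a window would be marked in replicate 1 alone.

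Replicate 2 closed many of the breaks in replicate 1. Of the 96 replicate 1 gaps, 53 met no gap of replicate 2. Those 53 were short, with a median of 546 bp, a maximum of 3800 bp and 41.6 kb in all. The 43 that did meet a replicate 2 gap had a median of 3265 bp. In the other direction 1 replicate 2 gap, of 476 bp, was filled in replicate 1. Of the 97 replicate 1 clusters, 91 lay wholly inside replicate 2 clusters, and 29 of the 48 replicate 2 clusters held 2 or more of replicate 1. The replicate 2 cluster at 252214 to 328279 held 6.

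The 10 windows that differed most between the samples were all higher in replicate 2. Of these, 5 were consecutive, from 1110001 to 1135000, where 23.4% of the bases lay in replicate 1 clusters and 87.05% in replicate 2 clusters. The window at 1115001 went from 0% to 68.2%, the one at 1130001 from 0% to 67.02%, and the one at 1120001 from 27.0% to 100%. This 25 kb is 1.85% of the chromosome and held 12.5% of the bases covered in replicate 2 alone. The windows were picked for their difference, so a raised share of such bases follows from the choice. In replicate 1 the clusters that reached into it, at 1107514 to 1112290 and at 1123653 to 1127214, scored 0.933 and 0.661, under that list's chromosome 4 median of 1.25. In replicate 2 a cluster at 1119466 to 1132752 scored 1.78, rank 41 of 48, and those on either side scored 2.70 and 2.496. The combined list covered 36.01% of these 25 kb.

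The other windows of this kind were isolated or lay toward the ends. The window at 1080001 had 24.0% in replicate 1 and 100% in replicate 2, and that at 1255001 had 39.7% and 100%. At 950001 the shares were 49.7% and 100%. Near the low border, the window at 75001 had 40.7% and 93.02%, and the one at 85001 had 15.2% and 66.7%.

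Bases covered in replicate 1 alone made up 6 stretches, of which the longest measured 1994, 1331 and 808 bp and the others 476 bp or less. The 3 windows higher in replicate 1 were those at 810001, at 435001 (88.4% against 70.3%) and at 50001 (22.1% against 13.9%). The replicate 1 cluster at 812159 to 814152, 1994 bp long, met no replicate 2 base, and was the one cluster of that list on the chromosome without any. Its score of 2.63 was the second highest of the 97. In replicate 2 a gap of 5792 bp ran from 810553 to 816344 across it. The combined list kept 98.7% of it. The window holding it (810001 to 815000) had 39.9% in replicate 1, 11.04% in replicate 2 and 39.6% in the combined list. Just beyond it, at 816338 to 825355, lay the highest-scoring combined cluster of the chromosome, 2.53, with 99.01% of its bases in replicate 1 and 99.9% in replicate 2. The replicate 2 clusters without a replicate 1 base numbered 4 and were at most 2805 bp long, at 87827, 153543, 681250 and 808592. The clusters at 87827, 681250 and 153543 had the 3 lowest scores of replicate 2 on the chromosome, 0.656, 0.764 and 1.18.

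Long clusters tended to carry high scores in both lists. Between length and score the Spearman correlation was 0.616 over the 97 replicate 1 clusters and 0.673 over the 48 replicate 2 clusters, given as a description of clusters within one list. In replicate 1, clusters of at least 20 kb had a median score of 1.76 and those under 5 kb one of 0.946. In replicate 2 the medians were 2.89 and 1.41. The highest score of replicate 2 on the chromosome, 3.39, was that of its 76.1 kb cluster at 252214 to 328279, and the lowest was 0.656 at 87827 to 89413. The lowest of replicate 1, 0.459, was at 82967 to 84268, within the same 10 kb as the lowest-scoring cluster of replicate 2.

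**Figure D4:**
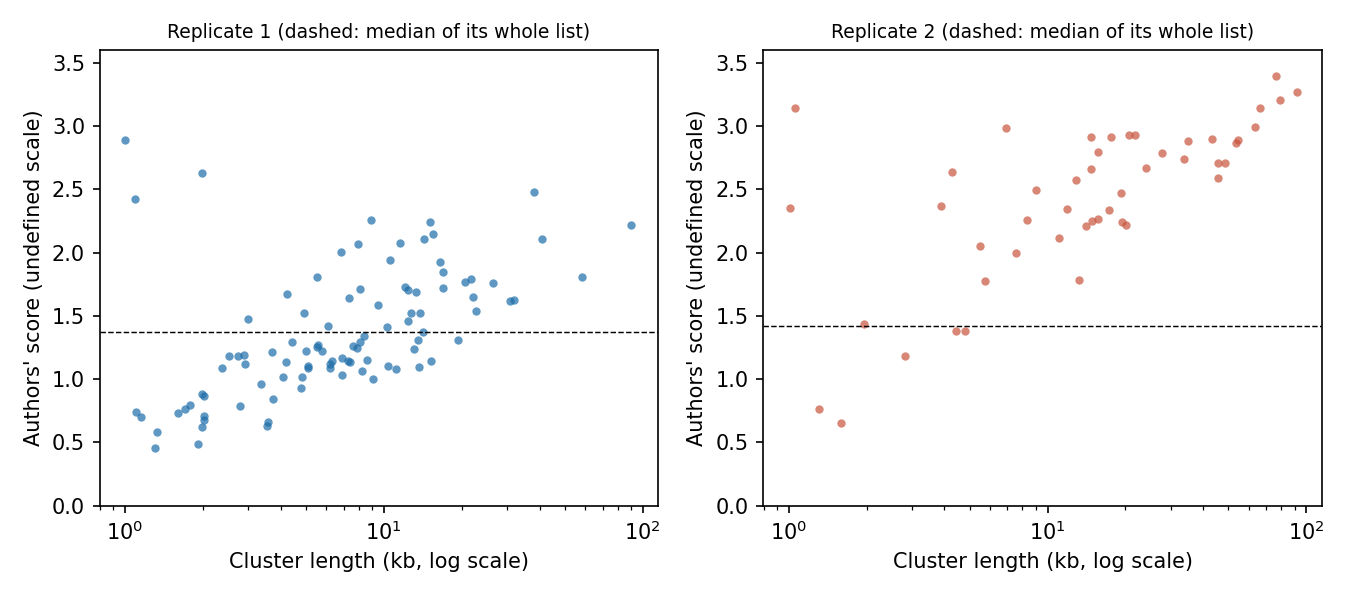
Length (x axis, kb, log scale) and the authors' score (y axis, undefined scale) of each chromosome 4 cluster in replicate 1 (97 points) and replicate 2 (48 points). The dashed line is the median score of the whole list, 1.37 and 1.42, and the points at about 1 kb with scores above 2 lie at the low-coordinate border.

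Scores on the chromosome were also set against the median of each whole list, although the 97 and 48 clusters are not the same items. In replicate 1, 41 of 97 chromosome 4 clusters (42.3%) reached the median score of their list, and in replicate 2 43 of 48 (89.6%) did. They thus reached it less often than their whole list in replicate 1, and more often in replicate 2. With only the clusters that reached it, 139 windows were marked in replicate 1 and 230 in replicate 2, and the 139 were marked in both. The share of all windows of the series marked with this cutoff is not given here. The longest runs left were 720001 to 810000, 380001 to 465000 and 505001 to 580000. They fall within 3 of the 4 longest blocks named above. This is no independent support for the blocks, since both rest on the same clusters and long clusters tended to score high.

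The combined list lay between the 2 samples. Its share lay between the replicate shares, or equalled one, in 261 of 271 windows, was above both in 7 and below both in 3. It took up 37.7% of the bases covered in replicate 2 alone and 99.1% of those in replicate 1 alone, the latter being only 4.70 kb. It marked 222 windows (81.9%) and left the same number empty as replicate 2, 26 (9.59%). The shares over all windows of the series are given here only for the 2 samples, not for the combined list.

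Chromosome 4 was set beside other densely marked parts of the genome. The placed heterochromatin scaffolds of 2L, 3 and X gave 1131 windows and the proximal 1 Mb of 2L, 3L, 3R and X 801. The proximal 1 Mb is a fixed length and was not fitted to where dense marking ends on each arm. The mean share per window was 79.1 ± 6.37% on chromosome 4, 60.6 ± 3.88% on the scaffolds, 59.02 ± 5.02% in the proximal parts and 14.4 ± 2.87% in the remaining interiors of those arms (SD, n = 2). The lower sample of chromosome 4 (74.5%) stood above the higher sample of the scaffolds (63.4%) and of the proximal parts (62.6%). Windows with full coverage in both samples made up 43.9% on chromosome 4, 27.8% on the scaffolds and 29.6% in the proximal parts. Windows empty in both made up 9.59%, 19.2% and 19.9%. Within a sample, chromosome 4 stood 16.7 and 20.2 percentage points above the scaffolds, and 19.1 and 21.0 above the proximal parts, in replicates 1 and 2. An exact sign-flip permutation test over the 2 samples gave a two-sided p of 0.5 for both, the smallest it can give, so the design cannot pass a threshold of 0.05.

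**Figure D5:**
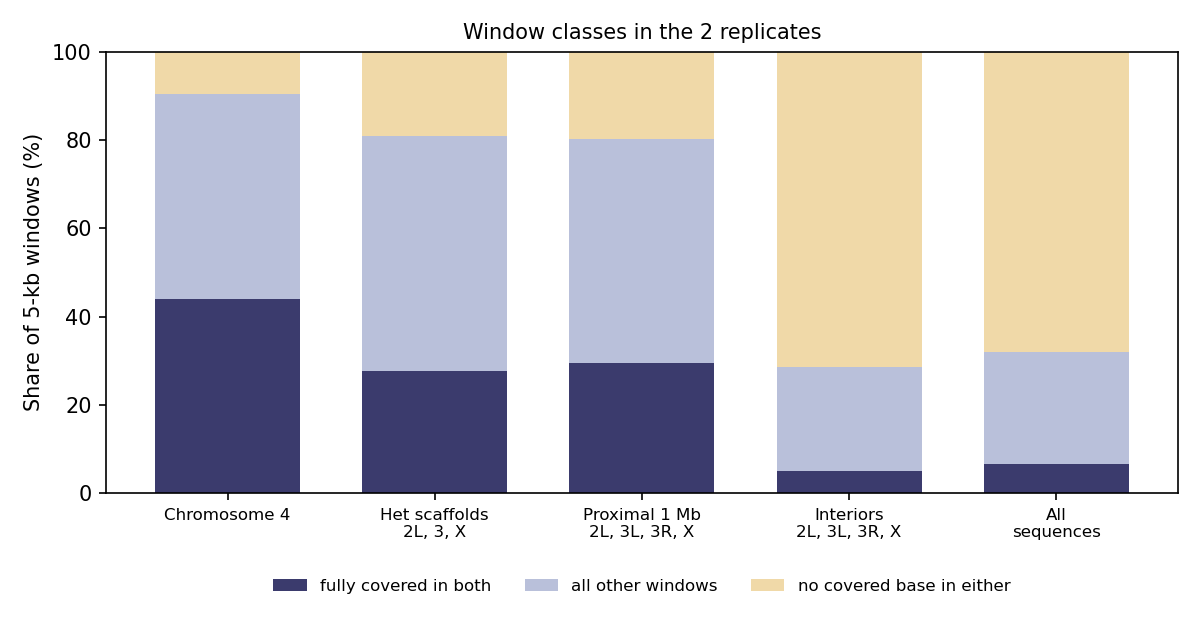
Share of 5-kb windows (y axis, %) that were fully covered in both replicates, empty in both, or neither, for chromosome 4 (271 windows), the Het scaffolds (1131), the proximal 1 Mb of the arms (801), their interiors (18778) and all sequences (33750). Fully covered windows make up 43.9% on chromosome 4, and 27.8%, 29.6%, 5.07% and 6.69% in the other bars.

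Gaps, unbroken stretches and ends were set side by side in the same way. On chromosome 4 the longest internal gap shared by both samples was 8.16 kb, against 43.7 kb on XHet, 79.5 kb on 2LHet, 85.5 kb on 3RHet and 137 kb on 3LHet. The medians were closer together, at 1589 bp on chromosome 4 and 1670 bp to 2689 bp on these scaffolds. The longest stretch covered in both without a break was 90.3 kb on chromosome 4 and 18.6 kb to 49.2 kb on the scaffolds. On the whole arms it was 42.02 kb on 3R, 124 kb on 2L, 170 kb on X and 263 kb on 3L. No end of the scaffolds or of 2L, 3L, 3R and X was bare over more than 51.01 kb, the low end of 3L, while those of chromosome 4 measured 53.5 kb and 73.6 kb. The longest gap was taken from 47 shared gaps on chromosome 4, 22 on 2LHet, 182 on 3LHet, 160 on 3RHet and 8 on XHet. A longest value tends to rise with the length of a sequence, and these sequences differ in length. The values were not adjusted for length and were not tested against each other.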

How the data were processed

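ChIP-seq of H3K9me2 in S2-DRSC cells gave 3 deposited lists of enriched clusters, 1 for each of 2 ChIP samples and 1 for the series. Coordinates are those of FlyBase release 5, per the file headers. Bowtie 0.12.7 is named as a tool, per the submitters' processing notes. How clusters were called, and how the combined list arose, is not given in the sources used here. The score of each cluster is the authors' deposited value on an undefined scale, and start and end are as deposited, 1-based. In all lists together, 1 position was written in exponent notation, on another sequence. The files hold no read counts.

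Sample groups came from the labels. Covered shares, gaps and runs were computed per base with Python 3.11.15, NumPy 2.4.6 and SciPy 1.17.1, and the functions were checked on simulated maps. Values are given as mean ± SD or per sample. Window classes were compared within samples by an exact sign-flip permutation test, added after the data were seen, which cannot go below p = 0.5 with 2 samples. Classes of other windows were set by the window's midpoint, and 2R was left out of them. The regions named are both ends, the 10 longest shared gaps, the 5 longest shared stretches, blocks of at least 50 kb, the 10 windows differing most, and the extreme scores. The cluster at 812159 and the run of 5 windows were singled out after their values were seen. Members and rules were chosen with earlier results of these data known.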

Additional observations from a re-analysis of the deposited data

How the results depend on the processing

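Of 28 recomputed values, 23 were counted as kept: within the SD of the replicates for the covered share, and within 1.5 times for the others. The 23 include 2 values of the covered share with 1 sample alone, which always lie within the SD of 2 samples and say nothing about stability. Marked windows with replicate 1 alone and empty windows with replicate 2 alone repeat the main values. This is because the former were all marked in replicate 2 and the latter all empty in replicate 1. A rise in marked windows could not be counted as moved, since 1.5 times 76.8% exceeds 100%. The covered share (79.2%) was 67.1% when clusters under the median score of their list were dropped, an alternative that leaves fewer clusters. It was 87.5% without the 2 ends, which was added after the data were seen and removes bare sequence. Windows without a covered base (9.59%) then made up 0.407%, for the same reason. The length of shared internal gaps (87.8 kb) was 20.1 kb when only gaps of at least 5 kb were counted. With 1 sample alone that length was 91.7 kb (replicate 2) or 214 kb (replicate 1). The covered share was 74.7% to 83.8% with 1 sample alone, windows marked 76.8% to 86.3%, and windows without a covered base 9.59% to 10.7%. With windows of 2 kb or 10 kb, windows starting 2.5 kb later, any covered base or at least 90%, marked windows (76.8%) ranged from 55.4% to 89.3%. They fell to 51.3% when clusters under the list median were dropped, close to the 1.5-fold limit. The shares of all windows of the series under these other rules are not given here. The contrast with the series was thus not checked under them. No paired analysis was possible because only the ChIP samples have lists. At an unknown depth, a gap is no proof that the mark is missing.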
